A study of Mus musculus with 2 samples.

Results

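The genes described here are those of the insulin-like growth factors (IGFs) and their binding proteins: Igf1 and Igf2, which encode the ligands, Igf1r, which encodes their signalling receptor, and Igfbp2, Igfbp3, Igfbp4, Igfbp5, Igfbp6 and Igfbp7. They were chosen by symbol, 9 of the 32285 genes in the count matrix, with their levels in these cells known, so their order over cell classes is a description and was not tested. Cells came from the dorsal skin of male WT mice aged 9 weeks or 108 weeks, with 1 library per age and 2 mice pooled in each. After digestion with collagenase-A, Dispase-II and DNaseI, cells were sorted as F4/80+MHCII-hi, by a pair of surface proteins that gate skin macrophages, and the 3' ends of their transcripts were counted as unique molecular identifiers (UMIs) in droplets.

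Both libraries were deposited in 1 matrix, as barcodes with suffix 1 (35821853 UMIs) and suffix 2 (20382748 UMIs). No source used here ties a suffix to an age, so the libraries are called by suffix and the ages were not compared. The cells kept (500 genes and 1000 UMIs or more, with mitochondrial UMIs no higher than 10%) numbered 2396 with suffix 1 and 1401 with suffix 2, and 1 barcode sequence occurred in both libraries. The 9 genes held 111343 UMIs, 0.219% of all UMIs of the kept cells.

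IGFs act on neighbouring cells and, from the liver, through the blood. They signal growth and survival through the receptor tyrosine kinase IGF1R, while the binding proteins (IGFBPs) hold ligand outside cells until proteases such as the pappalysins release it. In skin, IGF1 is known mainly as a product of the dermis that acts on the epidermis and the hair follicle, and IGFBP7, a distant relative that binds IGFs weakly, is known from vessel walls.

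Cells were clustered without the 9 genes and without 27 other genes of the IGF pathway, and the clusters were named from marker genes. Each name means no more than cells that resemble the type. Although the samples are labelled as macrophages, the macrophage class held 39.8% of the kept cells (1513 cells in 7 clusters, with all 10 of its markers at 20 CPM or more). The fibroblast class held 826 cells in 5 clusters, the endothelial class 347 in 3, the mural class (named by markers of pericytes and vascular smooth muscle) 173 and the Schwann class (glia of peripheral nerves) 126. Suffix 1 gave 81.2% of the macrophage cells and 38.5% of the fibroblasts. Levels are UMIs per 1000000 UMIs of a group of cells (CPM), with the exact 95% Poisson interval in parentheses, which covers counting error only. They are not scaled by length and are compared between groups of cells, not between genes.

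Doublets were not removed, and many cells held UMIs of another class. At least 2 of the 8 fibroblast markers were found in 939 macrophage cells, where the whole list summed to 361 CPM against 82844 CPM in fibroblasts. At least 2 of the 9 endothelial markers were found in 112 mural cells. These included all 100 cells of a mural subgroup led by haemoglobin genes and Rgs5. There the endothelial list summed to 3889 CPM, against 4442 CPM in the endothelial class. With coarser clusters (resolution 0.5) the mural class held 73 cells and the endothelial class 447. Values of the whole mural class are thus those of a mixed group. For comparison, levels of the 9 genes are set beside those of 2 unnamed clusters with Cd207, a lectin of Langerhans cells, among their leading genes (366 cells, called the Cd207 clusters). The macrophage markers summed to 7462 CPM in these clusters, where 97.3% of the cells held 2 or more of them. Cells with 2 or more dendritic markers made up 85.5%, and those with 2 or more of the 3 Langerhans markers 5.46%. Such cells may express the 9 genes themselves, so their levels do not measure free RNA. The Cd207 clusters were picked for this after values were seen.

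The promoters of 4 genes are shown because the results turn on 2 pairs. Igf1 and Igfbp4 had the same order over the macrophage clusters with both libraries summed. Igfbp2 and Igfbp5 are neighbours on chromosome 1 whose levels parted between fibroblast clusters. Sequences are from RefSeq (GRCm38.p6, the assembly that the submitters' processing notes call mm10), where all 9 genes matched. Each runs 5′ to 3′ on the gene's strand, from 250 bases before to 50 bases after an annotated start. Capitals mark matches on either strand to the TATA box (TATAAA), the GC box (GGGCGG) and the CCAAT box (CCAAT), of which none overlap here.
Igf1 (chr10:87860861-87861160, plus strand): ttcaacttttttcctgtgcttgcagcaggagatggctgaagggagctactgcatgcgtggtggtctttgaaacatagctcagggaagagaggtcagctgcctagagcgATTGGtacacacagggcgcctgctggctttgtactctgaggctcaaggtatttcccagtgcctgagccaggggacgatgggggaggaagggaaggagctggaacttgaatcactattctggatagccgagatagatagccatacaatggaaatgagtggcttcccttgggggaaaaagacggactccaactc
Igfbp4 (chr11:99040994-99041293, plus strand): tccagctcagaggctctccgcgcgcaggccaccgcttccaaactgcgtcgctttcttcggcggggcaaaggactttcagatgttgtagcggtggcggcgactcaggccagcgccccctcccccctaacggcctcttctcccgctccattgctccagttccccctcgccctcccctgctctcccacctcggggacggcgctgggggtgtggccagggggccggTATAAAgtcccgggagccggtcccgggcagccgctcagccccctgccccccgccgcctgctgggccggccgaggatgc
Igfbp2 (chr1:72824230-72824529, plus strand): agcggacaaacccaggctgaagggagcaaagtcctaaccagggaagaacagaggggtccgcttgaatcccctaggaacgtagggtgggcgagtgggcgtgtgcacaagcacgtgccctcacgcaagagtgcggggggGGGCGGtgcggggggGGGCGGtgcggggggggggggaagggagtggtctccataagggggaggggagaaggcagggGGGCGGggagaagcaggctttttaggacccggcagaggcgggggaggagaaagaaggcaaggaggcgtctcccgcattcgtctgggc
Igfbp5 (chr1:72874816-72875115, minus strand): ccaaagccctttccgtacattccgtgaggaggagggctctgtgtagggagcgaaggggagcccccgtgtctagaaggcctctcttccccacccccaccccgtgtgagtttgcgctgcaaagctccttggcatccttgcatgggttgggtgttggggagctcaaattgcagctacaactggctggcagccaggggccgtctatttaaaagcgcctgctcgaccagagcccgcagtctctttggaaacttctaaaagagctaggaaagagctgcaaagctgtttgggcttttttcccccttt

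The Igf1 window held 1 CCAAT box, on the opposite strand, and the Igfbp4 window 1 TATA box. The Igfbp2 window, at the more upstream of 2 annotated starts, held 3 GC boxes, and the Igfbp5 window none of the 3 motifs. Over all 32851 promoters of this length, 13.6% held the TATA box, 35.7% the GC box and 37.4% the CCAAT box. G and C made up 52.3% of the Igf1 window, 71.3% of Igfbp4, 67% of Igfbp2 and 56.3% of Igfbp5, beside a median of 52.7% over all promoters. The matches describe letters only.

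In the GENCODE vM21 annotation of the same assembly, Igf1 spans chr10:87858265-87937042, Igf2 spans chr7:142650766-142666816, Igf1r spans chr7:67952827-68233668, Igfbp2 spans chr1:72824503-72852474, Igfbp3 spans chr11:7206086-7213923, Igfbp4 spans chr11:99041244-99054392, Igfbp5 spans chr1:72857932-72874884, Igfbp6 spans chr15:102144362-102149511 and Igfbp7 spans chr5:77349240-77408041.

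Igf1 lay mainly in macrophages and fibroblasts, which held 58.4% and 37.1% of its UMIs. Macrophages held 235 CPM in suffix 1 and 185 CPM in suffix 2, and fibroblasts 99.8 CPM in suffix 1 and 288 CPM in suffix 2, so macrophages were the higher class in suffix 1 and fibroblasts in suffix 2. Over both libraries the levels were 224 CPM (217 to 231) and 187 CPM (180.0 to 195). Endothelial cells followed with 43.9 CPM (38.0 to 50.4), Schwann cells with 32.7 CPM (21.9 to 46.9) and mural cells with 15.2 CPM (10.6 to 21.0), and only endothelial and Schwann cells overlapped. The Cd207 clusters held 1.16 CPM (0.425 to 2.52), under each of the 5 classes, while keratinocyte-like cells held 2.57 CPM (1.03 to 5.29) and T cell-like cells 0 UMIs, which allows up to 9.66 CPM. Of the 29 Schwann UMIs, 25 lay in 23 cells that held 2 or more UMIs of the fibroblast marker Dcn, and the other 103 cells were at 6.59 CPM (1.80 to 16.9), which overlapped with the Cd207 clusters. Macrophages with fewer than 2 fibroblast markers were at 191 CPM (179 to 203). Fibroblasts with fewer than 2 macrophage markers were at 273 CPM (261 to 286), so the order of these classes was then reversed. That filter also changed the mix of the fibroblast clusters described further on. It left out 49 of 357 cells of the Myoc cluster, the highest for Igf1, and 3 of 27 of the Smpd3 cluster. Of the Grem1, Prlr and Cthrc1 clusters it left out 105 of 279, 50 of 111 and 36 of 52 cells. The part of macrophage RNA in the change was not tested.

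By detection the intervals of both classes overlapped. At an equal depth of 2000 UMIs a cell, Igf1 was found in 32.3% of 1452 cells (29.9 to 34.8) of the macrophage class, by the exact 95% Clopper-Pearson interval, in 30.8% of 780 cells (27.5 to 34.1) of the fibroblast class and in 0.278% of 360 cells (0.00703 to 1.54) of the Cd207 clusters. The shallower cells left out were 61, 46 and 6. Without thinning the shares were 54.6%, 65.6% and 1.64%, at median depths of 10142, 13108 and 14474.5 UMIs.

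Igf2, the ligand best known from growth before birth and imprinted in the mouse, was scarce. It had 4 UMIs in all macrophages and 197 in fibroblasts, at 14.6 CPM (12.6 to 16.8). Mural cells, at 19.8 CPM (14.6 to 26.4), overlapped with the fibroblasts. Endothelial cells held 7.67 CPM (5.35 to 10.7) and Schwann cells 3.38 CPM (0.697 to 9.88), which overlapped with each other. The Cd207 clusters held 3 UMIs (0.579 CPM). In fibroblasts the libraries were at 22.2 and 5.90 CPM.

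Igf1r, the receptor, was present in every class. Fibroblasts held 156 CPM (149 to 163), and endothelial cells at 105 CPM (96.3 to 115), mural cells at 103 CPM (90.5 to 117) and Schwann cells at 98.0 CPM (78.5 to 121) overlapped below them. Macrophages were at 43.3 CPM (40.3 to 46.5), 3.60-fold under fibroblasts, and overlapped with the Cd207 clusters at 47.5 CPM (41.7 to 53.8). Macrophages were at 46.8 and 31.7 CPM in the libraries and fibroblasts at 192 and 114 CPM. The place of fibroblasts at the top was not stable. Those with fewer than 2 macrophage markers, a changed mix of clusters, were at 98.2 CPM (90.7 to 106). They overlapped with the endothelial, mural and Schwann classes. Without the Prlr cluster described further on, fibroblasts were at 91.7 CPM (85.9 to 97.8), which overlapped with the same classes.

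**Figure D1:**
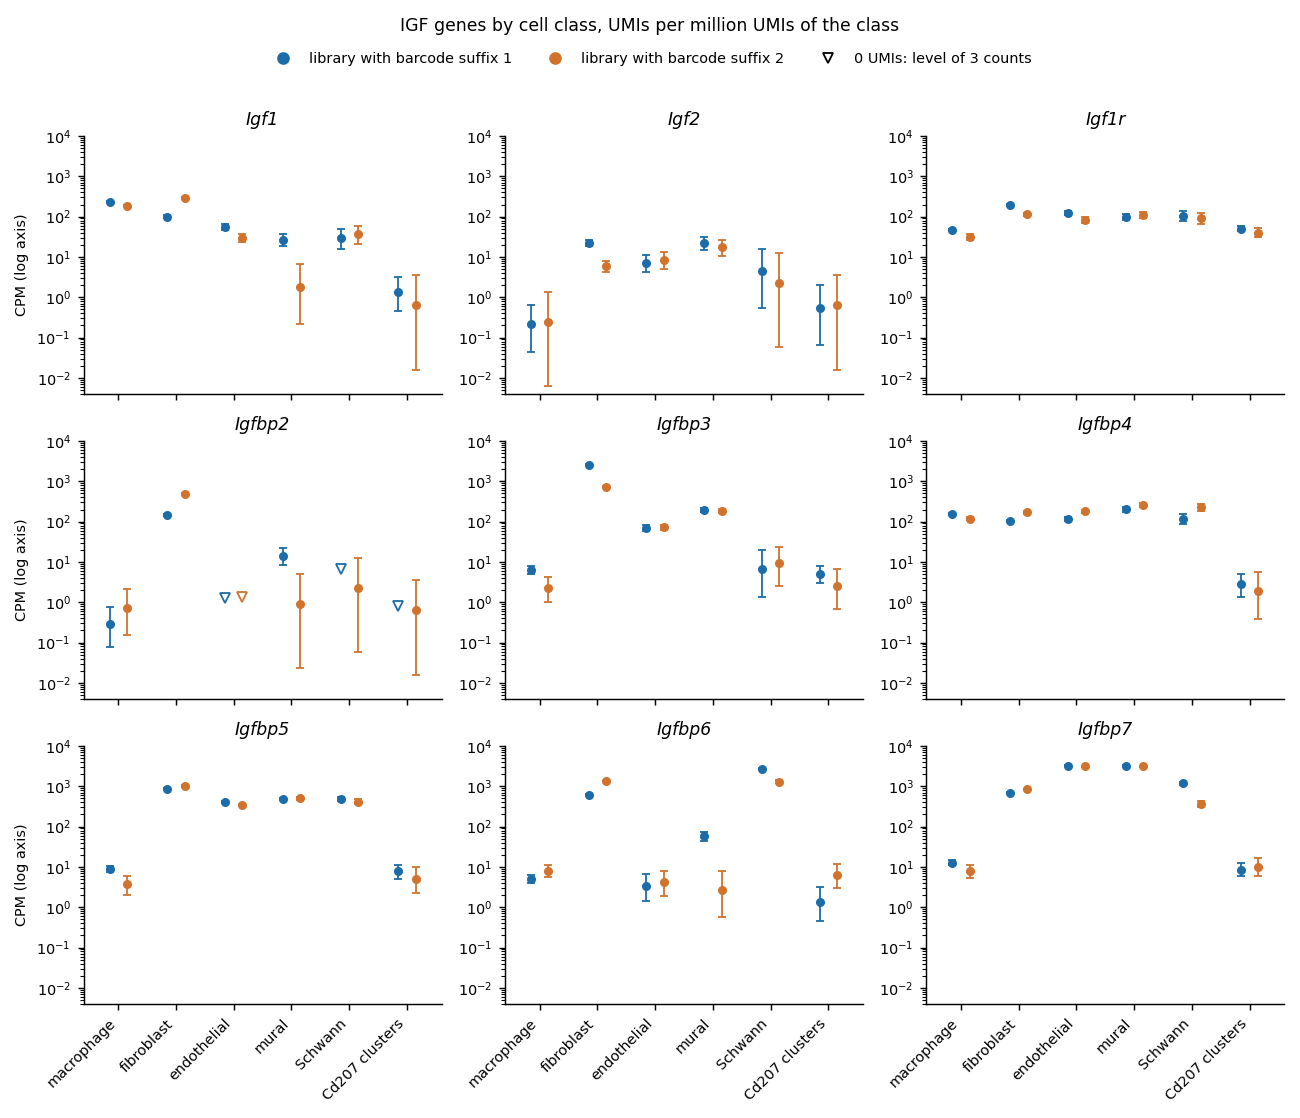
Level of each of the 9 genes (CPM, log axis) in the 5 cell classes and the Cd207 clusters, with 1 point per library and exact 95% Poisson intervals. An open triangle marks the level of 3 counts where a library held 0 UMIs. Igf1 was high in macrophages and fibroblasts. With both libraries summed, which is not plotted, Igfbp4 lay between 135 and 231 CPM over the 5 classes. Igfbp3, Igfbp5, Igfbp6 and Igfbp7 were then 5.34 to 11.6 CPM in macrophages.

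Against macrophages, 6 of the 9 genes were at least 4-fold higher in fibroblasts: Igf2, Igfbp2, Igfbp3, Igfbp5, Igfbp6 and Igfbp7. None was at least 4-fold lower. Among 12617 genes with 30 or more UMIs in the 2 classes, 18.1% were at least 4-fold higher and 10.5% at least 4-fold lower. The genes were chosen with this contrast known, so nothing is read from the difference. The median log2 ratio was 6.04 over the 9 genes and 0.16 over all genes tested.

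Igfbp2 was nearly confined to fibroblasts, with 98.6% of its UMIs. They held 303 CPM (294 to 312), at 146 and 483 CPM in the libraries. Macrophages had 7 UMIs, the Cd207 clusters 1 and endothelial cells 0, which allows up to 0.658 CPM. Few fibroblasts carried it: 77 of 826 cells had a UMI, 51 had 3 or more, and 8 cells together held 50% of the UMIs.

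Igfbp3, the main carrier of IGFs in blood, also lay in fibroblasts, which held 94.3% of its UMIs at 1723 CPM (1701 to 1746). The libraries were at 2579.9 and 740.1 CPM, and 19 cells held 50% of the UMIs. Fibroblasts with fewer than 2 macrophage markers, a changed mix of clusters, were at 765 CPM (744 to 787). Mural cells held 189 CPM (172 to 207) and endothelial cells 70.6 CPM (63.1 to 78.8). Schwann cells at 7.89 CPM (3.17 to 16.3) and macrophages at 5.34 CPM (4.32 to 6.53) overlapped with the Cd207 clusters at 4.25 CPM (2.66 to 6.43).

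Igfbp4, which holds back IGF until pappalysin A cleaves it, was the only IGFBP over 20 CPM in macrophages. It was 231 CPM (212 to 251) in mural, 171 CPM (145 to 201) in Schwann, 147 CPM (141 to 152) in macrophage, 146 CPM (136 to 158) in endothelial and 135 CPM (128 to 141) in fibroblast cells. From Schwann cells down each class overlapped with the next, macrophages and fibroblasts did not overlap, and mural cells stood above all. This order was not stable. Fibroblasts with fewer than 2 macrophage markers, a changed mix of clusters, were at 206 CPM (195 to 218). They were above the macrophages and overlapped with the Schwann and mural classes. The Schwann value was uneven, with 349 CPM (284 to 426) in the 23 cells with Dcn and 89.0 CPM (66.9 to 116) in the other 103, under the other 4 classes. The Cd207 clusters held 2.51 CPM (1.34 to 4.29), keratinocyte-like cells 88.4 CPM (77.6 to 100.3) and T cell-like cells 19.3 CPM (7.09 to 42.0). Macrophages were at 155 and 117 CPM in the libraries and fibroblasts at 104 and 169 CPM, so the higher class differed between the libraries.

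Igfbp5, which binds extracellular matrix as well as IGFs, was 952 CPM (936 to 969) in fibroblasts, 495 CPM (467 to 524) in mural, 451 CPM (408 to 497) in Schwann and 375 CPM (358 to 393) in endothelial cells, of which mural and Schwann cells overlapped. Macrophages, at 7.65 CPM (6.41 to 9.04), overlapped with the Cd207 clusters at 6.95 CPM (4.87 to 9.62). Without the mural cells that held 2 or more endothelial markers, the other 61 held 1592 CPM (1467 to 1725), above the fibroblasts. This left out all 100 cells of the subgroup led by haemoglobin genes and Rgs5. The 61 all belong to the other mural subgroup, led by Acta2 and Myh11, so the values differ by subgroup as well. In these 61 cells Igfbp3 was 31.7 CPM (16.4 to 55.4) and Igfbp7 3282 CPM (3102 to 3470.0).

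Igfbp6, which prefers IGF2 to IGF1, was found at equal depth in 73.5% of 780 cells (70.2 to 76.5) of the fibroblast class and 1.38% of 1452 cells (0.843 to 2.12) of the macrophage class. Fibroblasts held 956 CPM (939 to 972), at 613 and 1349 CPM in the libraries, macrophages 5.79 CPM (4.73 to 7.02) and endothelial cells 3.73 CPM (2.17 to 5.97), of which both overlapped with the Cd207 clusters at 2.90 CPM (1.62 to 4.78). Mural cells were at 32.1 CPM (25.3 to 40.1), but 1 cell held 90.8% of those UMIs. The highest class value was that of Schwann cells, 1976 CPM (1884 to 2070.3), at 2628 and 1300.4 CPM in the libraries.

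The Schwann value rested on few cells. Of the 126 cells, 19 held 10 or more UMIs and 98.7% of the class's Igfbp6. All 19 also held 2 or more UMIs of Dcn, the proteoglycan decorin and a fibroblast marker, and 7 held fewer than 2 of the 8 Schwann markers. The 23 Schwann cells with 2 or more Dcn UMIs were at 6194 CPM (5906 to 6493) of Igfbp6 and the other 103 at 24.7 CPM (13.8 to 40.8).

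In the cells with Dcn, Dpt, the fibroblast gene of dermatopontin, had 0 UMIs and Pdgfra was at 21.4 CPM (7.85 to 46.5). The other fibroblast markers were all found there: Dcn at 8276, Col1a2 at 1226, Col3a1 at 998, Col1a1 at 852, Mfap5 at 699 and Lum at 278 CPM. The fibroblast class held them at 11548, 26834, 12115, 30065, 204 and 1128 CPM. Igfbp7 was 1711 CPM (1561 to 1871) in the Schwann cells with Dcn and 354 CPM (309 to 405) in the others, whereas Igfbp5, at 499 CPM (419.7 to 589) and 429 CPM (378 to 484), overlapped. In the 27 Schwann cells with fewer than 2 fibroblast markers of any kind, Igfbp5 was 39.4 CPM (10.7 to 101), Igfbp7 168 CPM (97.6 to 268) and Igfbp4 315 CPM (216 to 445), and Igfbp6 had 0 UMIs. The part of another cell type in these values was not tested.

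**Figure D2:**
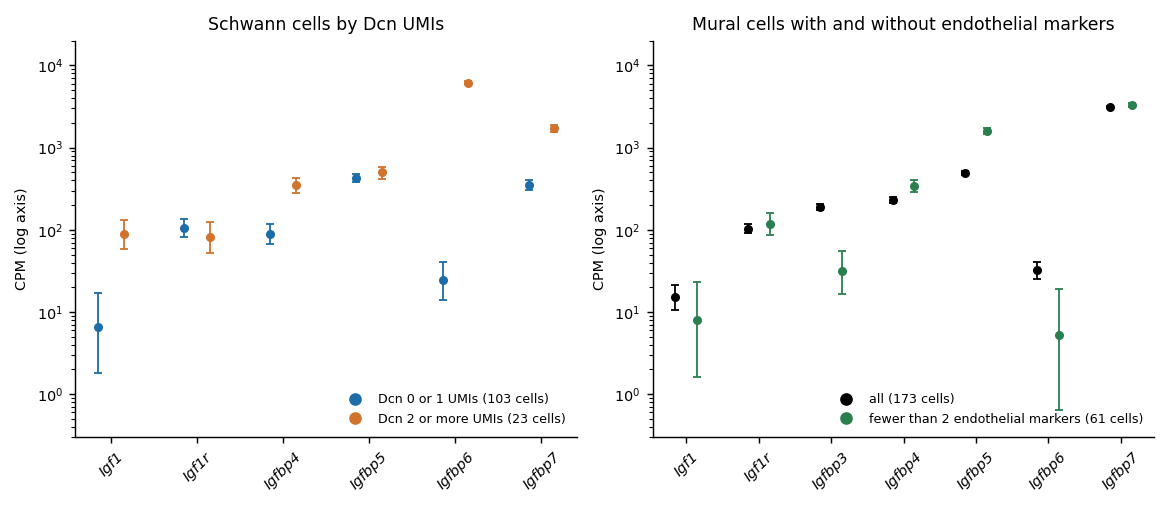
Levels (CPM, log axis, exact 95% Poisson intervals) in Schwann cells split by their Dcn UMIs, and in all mural cells beside those with fewer than 2 endothelial markers. Igfbp6 was 6194 CPM in the Schwann cells with 2 or more Dcn UMIs and 24.7 CPM in the others. In mural cells with few endothelial markers Igfbp5 was higher and Igfbp3 lower than in all mural cells. Those cells all belong to the subgroup led by Acta2 and Myh11.

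Igfbp7 was highest in cells of the vessel wall. Endothelial cells held 3189 CPM (3138 to 3242) and mural cells 3155 CPM (3084 to 3227), which overlapped, and all 173 mural cells had a UMI. Schwann cells, at 783 CPM (726 to 844), and fibroblasts, at 763 CPM (749 to 778), overlapped lower down. The overlap held in neither library, since Schwann cells were at 1188 and 365 CPM and fibroblasts at 696 and 840.3 CPM. Macrophages, at 11.6 CPM (10.1 to 13.3), overlapped with the Cd207 clusters at 9.07 CPM (6.67 to 12.1).

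Igfbp7 alone of the 9 genes was at least 4-fold higher in endothelial than in fibroblast cells, at 4.18-fold, where 9.11% of all genes tested were. It was also the only one in mural cells, at 4.13-fold, where 7.61% were. Both lay close to 4-fold and under it in suffix 2 alone. None was 4-fold higher in Schwann cells, where 6.96% were, and Igfbp6 stood at 2.07-fold.

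Within the macrophages, Igf1 and Igfbp4 had the same order of clusters with both libraries summed. Igf1 was 553 CPM (524 to 584) in a cluster led by Cd209f, Cd209g and Folr2, genes of resident tissue macrophages, and 505 CPM (478 to 534) in one led by Pf4 and Ccl8, which overlapped. A cluster led by Cfd and Ccl3, at 163 CPM (145 to 183), overlapped with one led by S100a9 and the monocyte gene Ly6c2, at 153 CPM (142 to 164). The clusters led by Retnla, by Spp1 and by Dcstamp, a gene of cell fusion, followed with 98.5 CPM (84.6 to 114), 68.5 CPM (57.9 to 80.5) and 19.4 CPM (14.0 to 26.1), without overlap. The highest and the lowest were 28.5-fold apart.

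Igfbp4 was 433 CPM (407 to 460.4) in the Cd209f cluster and 325 CPM (303 to 348) in the Pf4 cluster. It was 111 CPM (96.3 to 128), 97.7 CPM (89.2 to 107) and 34.7 CPM (26.6 to 44.4) in the Cfd, S100a9 and Retnla clusters. In the Spp1 cluster it was 11.7 CPM (7.54 to 17.2) and in the Dcstamp cluster 4.51 CPM (2.16 to 8.29), which overlapped with the Cd207 clusters. Igf1r varied less, from 70.4 CPM (60.1 to 82.0) in the Cd209f cluster to 18.6 CPM (13.3 to 25.4) in the Spp1 cluster.

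The values of both leading clusters were of similar size in cells with few fibroblast markers. In the 87 cells of the Cd209f cluster with fewer than 2 of them, Igf1 was 488 CPM (436 to 543) and Igfbp4 445 CPM (396 to 498). In the 101 such cells of the Pf4 cluster they were 432 CPM (386 to 481) and 335 CPM (295 to 379). By library, Igf1 was 596 and 389 CPM in the Cd209f cluster and 522 and 450.0 CPM in the Pf4 cluster, so their order differed between the libraries.

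**Figure D3:**
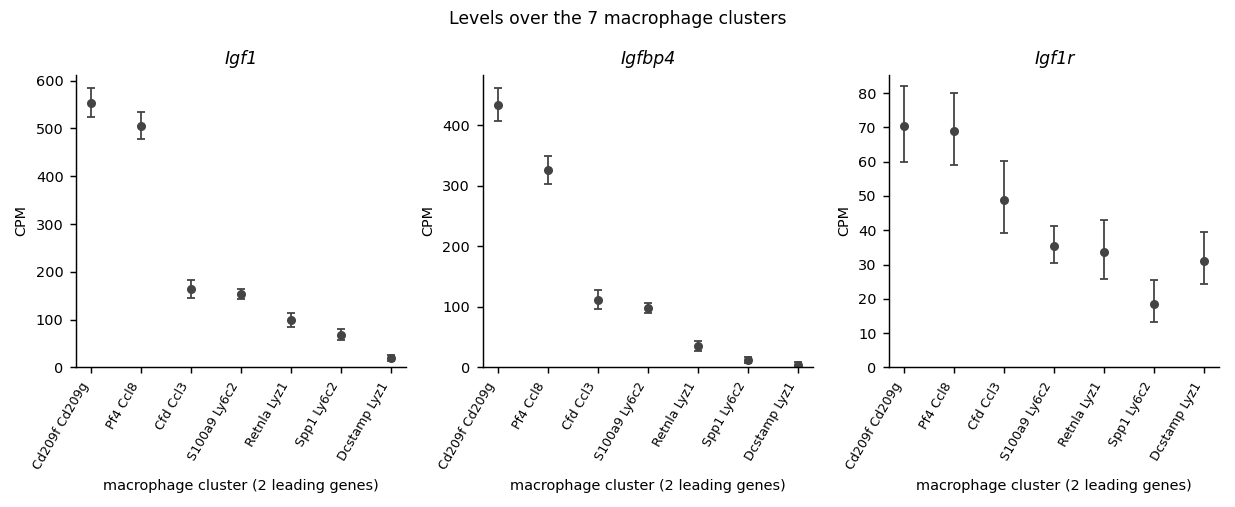
Level of Igf1, Igfbp4 and Igf1r (CPM, exact 95% Poisson intervals) in the 7 macrophage clusters, each named by 2 of its leading genes. With both libraries summed, Igf1 went from 553 to 19.4 CPM and Igfbp4 from 433 to 4.51 CPM in the same order. Igf1r lay between 18.6 and 70.4 CPM.

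The fibroblast clusters differed in the binding proteins they held. The largest (357 cells, led by Myoc and Ptx3) was highest for Igf1, at 425 CPM (405 to 447), while the other 4 lay between 79.8 and 107 CPM and each overlapped with its neighbour. It was highest for Igfbp7 too, at 1071 CPM (1038 to 1105), and held 1637 CPM (1596 to 1679) of Igfbp6.

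The next cluster (279 cells) was led by Igfbp2, although that gene was left out of the clustering, and by Grem1, which encodes an antagonist of bone morphogenetic proteins. This Grem1 cluster held 826 CPM (800.2 to 852) of Igfbp2 and 1623 CPM (1587 to 1659.6) of Igfbp5, with 7 UMIs of Igfbp4. Igfbp2 and Igfbp5 lie tail to tail with 5457 bases between them and 0 protein-coding genes in the gap, and both were high here. Elsewhere they parted. A cluster of 52 cells led by Cthrc1 and collagen genes, all but 1 from suffix 1, held 1356 CPM (1294 to 1419.7) of Igfbp5 and 1 UMI of Igfbp2.

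The cluster led by Prlr (111 cells, with the protease gene Pappa2 also leading) was highest for Igfbp3, at 5608 CPM (5529 to 5688), for Igf1r, at 346 CPM (326 to 366), and for Igf2, at 52.9 CPM (45.4 to 61.2). It was lowest for Igfbp5, at 30.6 CPM (25.0 to 37.0), and Igfbp6, at 74.3 CPM (65.5 to 84.1). In 50 of its cells 2 or more macrophage markers were found, and the other 61 held 3685 CPM (3515 to 3862) of Igfbp3, 202 CPM (163 to 246) of Igf1r and 60.9 CPM (40.8 to 87.5) of Igf2. Fibroblasts without this cluster were at 412 CPM of Igfbp3, 91.7 CPM of Igf1r and 1.69 CPM of Igf2, and Igf2 then had under the 30 UMIs asked of a gene for a fold against macrophages.

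The smallest cluster (27 cells, led by Smpd3, Sfrp2 and Pi16) was highest for 3 binding proteins, with 1082 CPM (972 to 1201) of Igfbp4, 3164 CPM (2974 to 3363) of Igfbp5 and 3348 CPM (3152 to 3553) of Igfbp6. It was lowest for Igfbp7, from 31 UMIs (interval 64.6 to 135 CPM), and had 0 UMIs of Igfbp2. Igfbp4, which differed little between the classes, thus ran from 0.753 to 1082 CPM among fibroblasts.

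The 3 endothelial clusters differed in Igfbp5 and Igfbp7. The cluster led by Gpihbp1, a capillary gene (243 cells), held 3780.4 CPM (3706 to 3856) of Igfbp7 and 16.8 CPM (12.2 to 22.5) of Igfbp5. The one led by Selp and Sele, the selectins of activated venules (48 cells), held 4285 CPM (4161 to 4412) and 154 CPM (131 to 179). The one led by Ccl21a with Prox1, genes of lymphatic vessels (56 cells), held 142 CPM (118 to 169) and 1699 CPM (1615 to 1787), the reverse of the others.

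Some of the smaller endothelial values went with markers of other classes. Igfbp5 in the Selp cluster was 7.24 CPM (1.49 to 21.2) in its 21 cells with fewer than 2 fibroblast markers. Igf1 was 28.9 CPM (22.8 to 36.2) in the Gpihbp1 cluster and 8.00 CPM (4.26 to 13.7) in its 190 cells with fewer than 2 macrophage markers. In the Selp cluster it was 101 CPM (82.8 to 122), and 90.9 CPM (68.4 to 118) in the 32 such cells.

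**Figure D4:**
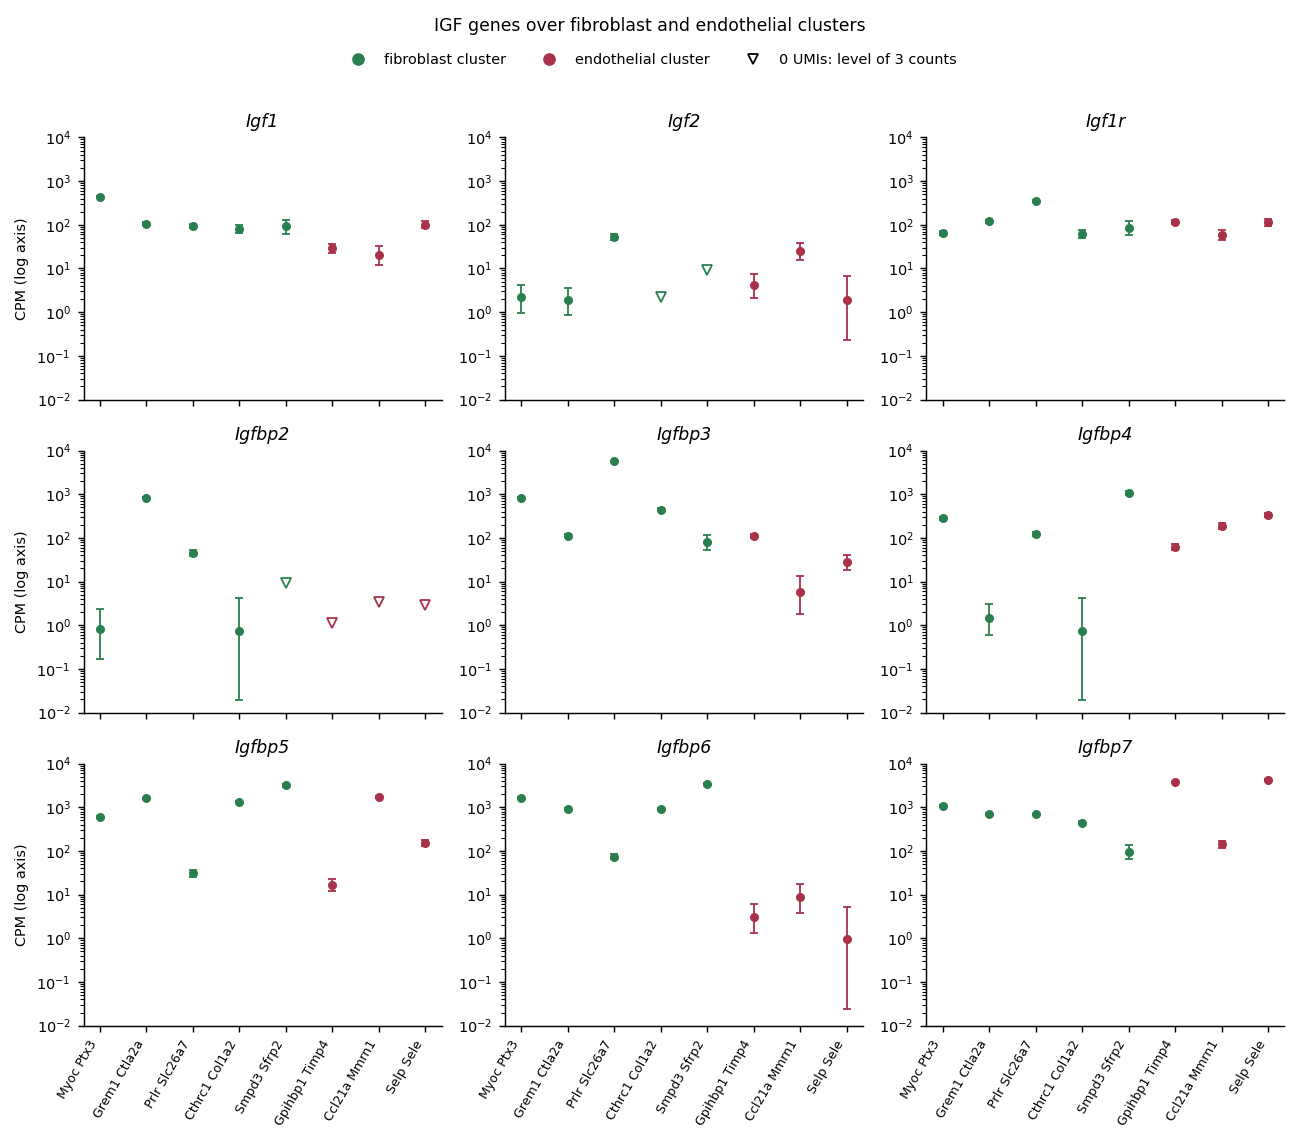
Level of each gene (CPM, log axis, exact 95% Poisson intervals) in the 5 fibroblast and 3 endothelial clusters, each named by 2 of its leading genes. Open triangles mark the level of 3 counts where a cluster held 0 UMIs. Igfbp2 was highest in the Grem1 cluster (826 CPM), Igfbp3 in the Prlr cluster (5608 CPM) and Igfbp7 in the Selp cluster (4285 CPM).

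Between the libraries, 5 of the 9 genes were at least 2-fold apart in fibroblasts, where 15.9% of all genes tested were. Igf1 was 2.88-fold, Igfbp2 3.31-fold and Igfbp6 2.20-fold higher in suffix 2, while Igfbp3 was 3.49-fold and Igf2 3.77-fold higher in suffix 1. The clusters were shared unequally too. The Myoc cluster had 64 cells in suffix 1 and 293 in suffix 2, and the Prlr cluster 80 and 31. With 1 library on each side there is no replicate, and the intervals compare these libraries only.

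Within clusters the library differences were not the same. In the Myoc cluster Igf1 was 417 and 427 CPM in suffix 1 and suffix 2, a log2 ratio of 0.04 (-0.15 to 0.23). In the Grem1 cluster it was 52.4 and 144 CPM, a log2 ratio of 1.46 (1.14 to 1.79), and in the Prlr cluster 67.4 and 331 CPM, a log2 ratio of 2.30 (1.95 to 2.64). Igf1 was thus higher in suffix 2 in both of the latter, and its interval in the Myoc cluster spanned 0.

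Igfbp3 had a log2 ratio of -1.80 (-1.85 to -1.76) over the whole class, against 0.13 (-0.01 to 0.26) in the Myoc, 1.38 (1.07 to 1.70) in the Grem1 and -0.11 (-0.18 to -0.04) in the Prlr cluster. Igfbp6 had 1.14 (1.09 to 1.19) over the class, -0.14 (-0.23 to -0.05) in the Myoc and 1.31 (1.21 to 1.42) in the Grem1 cluster. Igfbp2 in the Grem1 cluster was 467 and 1071 CPM. Without the Prlr cluster, only Igf1 and Igfbp2 were 2-fold apart in the fibroblast class.

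**Figure D5:**
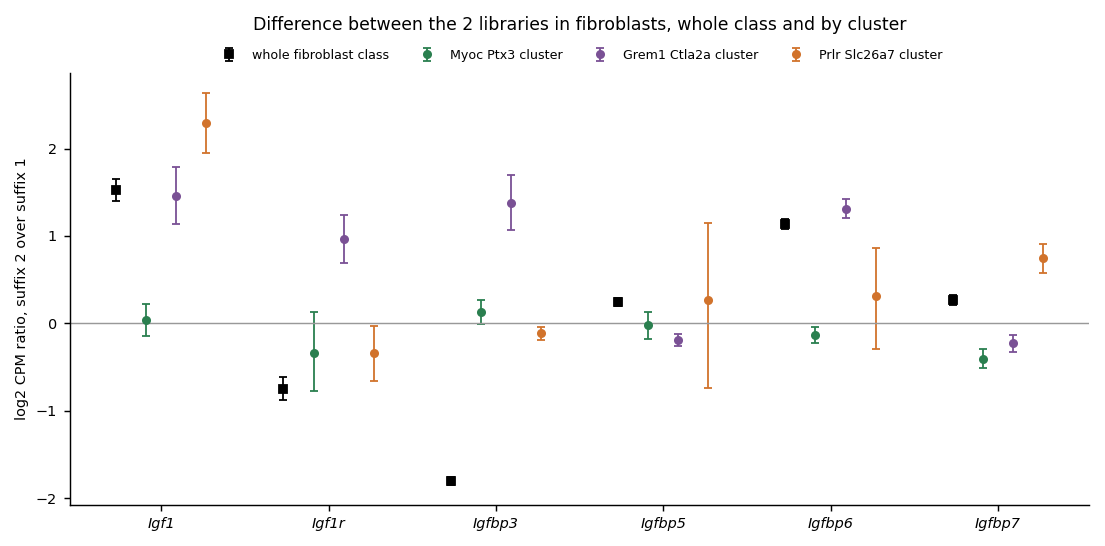
Log2 ratio of the CPM in suffix 2 over that in suffix 1 for 6 of the genes, in the whole fibroblast class and in its 3 largest clusters, with exact 95% intervals for counting error. Igfbp3 was at -1.80 over the whole class and between -0.11 and 1.38 in the 3 clusters.

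In macrophages, 2 of the 7 genes with 30 or more UMIs were 2-fold apart, where 4.45% of all genes tested were. These were Igfbp3, at 6.27 and 2.21 CPM, and Igfbp5, at 8.82 and 3.68 CPM, both near the Cd207 clusters in level. The fibroblast markers summed to 435 CPM in suffix 1 macrophages and 113 CPM in suffix 2 macrophages, and their part in the difference was not tested. In mural cells, Igf1 (26.8 and 1.81 CPM) and Igfbp6 (57.6 and 2.72 CPM) were also apart, 2 of 8 genes beside 6.42% of all genes tested, and there the fibroblast markers summed to 2869.5 and 282 CPM. In Schwann cells 2 of 5 genes were apart, Igfbp6 at 2.02-fold and Igfbp7 at 3.26-fold higher in suffix 1, beside 8.82% of all genes tested. In endothelial cells none of 7 genes was 2-fold apart, beside 5.8%, and Igfbp7 was 3218 and 3158 CPM.

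The wider pathway was taken from a list of 27 genes. Of the 20 with enough UMIs, 13 were at least 4-fold higher in fibroblasts than in macrophages and none was 4-fold lower, beside 18.1% and 10.5% of all genes. Pappa and Pappa2, the pappalysins that cut IGFBPs, were 27.6 CPM (24.9 to 30.5) and 218 CPM (210.1 to 226) in fibroblasts, with 3 and 8 UMIs in macrophages. Their inhibitors Stc1 and Stc2, the stanniocalcins, were 14.5 CPM (12.5 to 16.6) and 18.3 CPM (16.1 to 20.8) in fibroblasts. Stc1 was higher in endothelial cells, at 57.0 CPM (50.3 to 64.4), and mural cells, at 55.3 CPM (46.2 to 65.6). Htra1, another protease that cuts IGFBPs, was 337 CPM (327 to 347) in fibroblasts and 2.08 CPM (1.46 to 2.87) in macrophages.

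Among receptors and adaptors, Ghr, the growth hormone receptor, was 119 CPM (113 to 125) in fibroblasts and 1.97 CPM (1.37 to 2.74) in macrophages. Socs2, an inhibitor induced by growth hormone, was 159 CPM (148 to 171) in endothelial cells, 72.2 CPM (67.8 to 76.9) in fibroblasts and 4.72 CPM (3.77 to 5.85) in macrophages. The insulin receptor substrate Irs1 was 13.9 CPM (12.0 to 16.1) in fibroblasts with 6 UMIs in macrophages, whereas Irs2 was 159.5 CPM (153 to 166) and 70.8 CPM (67.0 to 74.9) and did not pass 4-fold.

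The inhibitory adaptor Grb10 was 54.9 CPM (51.0 to 59.0) in fibroblasts and 0.675 CPM (0.349 to 1.18) in macrophages, and its relative Grb14 was 72.1 CPM (55.5 to 92.1) in Schwann cells and 8.68 CPM (7.18 to 10.4) in fibroblasts. Igf2r, the receptor that clears IGF2, was 52.5 CPM (48.7 to 56.5) in fibroblasts and 12.8 CPM (11.2 to 14.6) in macrophages. Adam12 and Kazald1 were the other members past 4-fold. Ins1 and Ins2, the insulin genes, had 0 UMIs in the 5 classes, and Igfbp1 had 3 UMIs, all in fibroblasts.

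Over the 25 clusters of at least 30 cells, the 3 genes most like each member in log2(CPM + 10) were taken from 10583 candidates. The clusters share their libraries and free RNA, and Pearson's r is given without a test. Igf1 was most like Man1c1 (0.89), Slc35f5 (0.83) and Blvrb (0.82), Igfbp2 like Wnt5a (0.94), Ptgfr (0.92) and Ccbe1 (0.90), and Igfbp3 like Gm17501 (0.91), Ptges (0.91) and Fap (0.89). Igfbp6 was most like Mfap5 (0.98) and Ogn (0.97), which encode matrix proteins, and Igfbp7 like Col4a2 (0.97), which encodes a basement membrane collagen, and Dlc1 (0.97). Igfbp5 was closest to Prelp (0.94), Igf2 to Thsd4 (0.91), Igf1r to Zfp131 (0.88) and Igfbp4 to Hbegf (0.80). Among the 9 genes themselves the highest value was 0.70, for Igfbp5 with Igfbp6, and Igf1 with Igfbp4 had 0.58.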

How the data were processed

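Skin cells sorted as F4/80+MHCII-hi were sequenced from 2 pooled mice at each of 2 ages. The authors deposited raw UMI counts per gene and barcode as 1 matrix of both libraries, made, per the submitters' processing notes, with Cell Ranger 4.0.0 on mm10. Since no label ties a barcode suffix to an age, the comparison of ages was not made. The 9 genes, the pathway list and the markers were chosen with earlier results of these data known.

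Of 5257 barcodes, 3797 were kept (median 10870 UMIs), and 1149 exceeded the mitochondrial limit. With scanpy 1.11.5, counts were scaled to 10000 per cell and logged, and 2000 variable genes gave 30 principal components, 15 neighbours and Leiden clusters (leidenalg 0.10.2, resolution 1, seed 1), leaving out the 9 genes, the 27 pathway genes and mitochondrial genes. Clusters were named from marker lists where at least 3 markers were raised and the best class led the next by 0.5 in mean log2 score. No other class could have more markers among the 10 leading genes. By this last rule the Cd207 clusters, whose best list was dendritic, stayed unnamed. No doublet caller was run.

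UMIs were summed per class and library. With 1 library per age no test was made. Intervals are exact (Poisson, Clopper-Pearson, scipy 1.17.1), and cover counting error only. The interval of a ratio was checked on simulated Poisson counts, the model it assumes, so the check does not cover spread between cells. A count of 0 allows 3 counts. Folds needed 30 UMIs over both groups. Named were all 9 genes, pathway genes past 4-fold or with a value a sentence turns on, the 3 genes most like each member (200 or more UMIs), and leading genes of clusters by fold of CPM + 10. GENCODE vM21 matched 32158 of 32285 gene identifiers.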

Additional observations from a re-analysis of the deposited data

How the results depend on the processing

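The count of the 9 genes at least 4-fold higher in fibroblasts than in macrophages lay between 4 (each cell classed from its own markers) and 7 (stricter cell filter, or suffix 1 only), against 6. The count in mural over fibroblast cells, 1, was 2 with a looser cell filter and without the Prlr cluster, and 0 at resolution 0.5, at resolution 2, in suffix 2 only, with a mean over cells, with median-of-ratios scaling and with mixed cells left out. That in endothelial over fibroblast cells, 1, was 2 with each cell classed alone and without the Prlr cluster, and 0 in suffix 2 only, with a mean over cells and with median-of-ratios scaling. That in Schwann over fibroblast cells, 0, was 1 in suffix 1 only (Igfbp6) and with mixed cells left out (Igf2). Genes 2-fold apart between the libraries in fibroblasts, 5, were 1 with each cell classed alone, 1 with a mean over cells, 1 with mixed cells left out and 2 without the Prlr cluster. In macrophages, 2 became 4 with each cell classed alone and 0 with mixed cells left out. The 13 pathway genes became 8 with each cell classed alone. The cause was not tested. The highest class of Igf1 became fibroblasts with a stricter filter, in suffix 2 only, with a mean over cells and with mixed cells left out. That of Igf1r, fibroblasts, became endothelial without the Prlr cluster, Schwann with a mean over cells and with mixed cells left out, and mural with each cell classed alone. That of Igfbp6, Schwann, became fibroblasts with a looser filter, each cell classed alone, suffix 2 only, mixed cells left out and Schwann cells with Dcn left out. That of Igfbp5, fibroblasts, became mural with a looser filter, at resolution 0.5 and 2, with mixed cells left out and without mural cells holding endothelial markers. That of Igf2, mural, became fibroblasts in suffix 1 only and with a stricter filter, that of Igfbp4, mural, became fibroblasts with a stricter filter, that of Igfbp3, fibroblasts, became mural with each cell classed alone, and that of Igfbp7, endothelial, became mural without mural cells holding endothelial markers. Leaving out mixed cells kept 560 macrophages, 533 fibroblasts, 130 endothelial, 20 mural and 23 Schwann cells. A stricter filter left no mural class. Leaving out mural cells with endothelial markers, Schwann cells with Dcn or the Prlr cluster was chosen after seeing the data. No paired analysis was possible because each age has 1 library and no suffix is tied to an age.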

Other observations

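Outside the 5 classes, Igf2 was highest in 142 cells of 2 muscle-like clusters, at 48.9 CPM (34.9 to 66.6) from 40 UMIs. Igfbp3 was 179.7 CPM (164 to 196) in 77 keratinocyte-like cells, where 1 cell held 25.9% of its 490 UMIs. Igf1r was 180.4 CPM (123 to 256) in 32 mast cell-like cells, from 31 UMIs. These values were picked after they were seen and have no replicate.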
